A study of Mus musculus with 8 samples.

Results

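The 8 genes described here are Dlx1, Dlx2, Dlx3, Dlx4, Dlx5, Dlx6, Msx1 and Msx2 of the mouse, 8 of the 20307 protein-coding genes of at least 1 kb in the annotation. They were chosen by name, as genes of the distal-less and muscle segment homeobox families, not by a threshold on a measured value. Chromatin loops and topologically associating domains (TADs, stretches of chromosome that contact themselves more than their surroundings) came from Hi-C of 3 cell types, and binding sites of the insulator protein CTCF came from ChIP-seq of the lens cells. The cell types were v6.5 mouse embryonic stem (ES) cells, grown without feeders on gelatin with 24 ng/mL LIF, and the epithelium and the fiber cells dissected from lenses of CD-1 mice at postnatal day 0.5. Hi-C had 2 replicates per cell type, each lens replicate pooling 30 samples of dissected tissue, and ChIP-seq used 200 pooled lenses with 1 sample per lens cell type in the labels. The study's methods describe replicates of this ChIP-seq, but a single peak list per lens cell type was used here. The labels give no engineered allele or drug treatment for any group. A loop, TAD or peak was assigned to a gene when it overlapped the gene body widened by 5 kb on each side. For a loop, 1 of its anchors (the paired segments of 5, 10 or 25 kb that it joins) had to do so.

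The authors merged both replicates of each cell type before calling loops and TADs, so that each cell type stands as a single list and no test between cell types could be made. Loops numbered 8459 in ES cells, 8005 in the epithelium and 7682 in the fiber cells, with a median of 56, 51 and 63 observed contacts. TADs numbered 3604, 1796 and 2641, and CTCF peaks 16433 in the epithelium and 23868 in the fiber cells. The 95% intervals below are exact Poisson intervals on the observed contacts, which cover counting error only. The lists hold no RNA level, so that marker genes of the labelled cell types could be read only by their peaks and loops, which give no clear check of the labels. Peaks lay at 2 of 12 fiber marker genes in the epithelium list and at 7 of 12 in the fiber list, where 32.9% and 48.2% of all coding genes had one. They lay at 2 of 5 epithelium markers in both lists and at 5 of 7 and 4 of 7 ES cell markers. A loop was found at 3, 6 and 5 of the 12 fiber markers, at 4, 3 and 3 of the 5 epithelium markers and at 3 of the 7 ES cell markers in each list, in the order ES cells, epithelium and fiber cells. Of markers of other cells, 2 of 4 for retina or neurons and 1 of 3 for vessel or blood had a peak in both lens lists.

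Dlx genes are the vertebrate relatives of the fly gene Distal-less and lie in pairs whose members are transcribed towards each other. Dlx1 and Dlx2 act in the GABA interneurons of the forebrain, Dlx5 and Dlx6 in limb, jaw and bone, and Dlx3 and Dlx4 in skin, hair, teeth and placenta. Msx1 and Msx2, related to the fly gene muscle segment homeobox, respond to BMP signals in the face, teeth and skull. All of them encode homeodomain transcription factors, proteins that commonly bind DNA with a TAATTA core, and such developmental regulators are widely known to be kept silent by Polycomb proteins in ES cells. Polycomb marks and expression were not measured in these lists.

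The 8 genes lie at 5 loci (assembly GRCm38.p6). Dlx1 (chr2:71528113-71533981) and Dlx2 (chr2:71543408-71546754) are 9.43 kb apart, Dlx3 (chr11:95120117-95125296) and Dlx4 (chr11:95140447-95146294) 15.2 kb apart, and Dlx6 (chr6:6863334-6867970) and Dlx5 (chr6:6877801-6882068) 9.83 kb apart. Msx1 (chr5:37820491-37824585) and Msx2 (chr13:53466881-53472780) stand alone. Paired genes can share an anchor, so that the 8 genes are not 8 independent observations. The nearest other protein-coding gene lay 2.92 kb from Dlx1 (Metap1d, an aminopeptidase gene) and 252.9 kb away on its other side (Itga6). Around Msx2 the nearest were Gm38564 at 47.5 kb and the dopamine receptor gene Drd1 at 578.4 kb, and around Dlx5 they were Sem1 at 299.1 kb and Sdhaf3 at 73.9 kb. Dlx3 and Dlx4 lay between Itga3 and Tac4, at 43.3 kb from Dlx3 and 115.2 kb from Dlx4.

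Promoters were matched for Dlx1, Dlx2, Msx1 and Msx2 in RefSeq, 4 of the 8 genes. The 250 bases before the start are printed below for Dlx2, Msx1 and Msx2, since loop anchors of ES cells cover all 3 of them and since they show how the CG dinucleotides, in capitals, are packed at these starts. The coordinates are chr2:71546755-71547004, chr5:37824586-37824835 and chr13:53472781-53473030 of GRCm38.p6, all on the minus strand and written 5′ to 3′.
Dlx2: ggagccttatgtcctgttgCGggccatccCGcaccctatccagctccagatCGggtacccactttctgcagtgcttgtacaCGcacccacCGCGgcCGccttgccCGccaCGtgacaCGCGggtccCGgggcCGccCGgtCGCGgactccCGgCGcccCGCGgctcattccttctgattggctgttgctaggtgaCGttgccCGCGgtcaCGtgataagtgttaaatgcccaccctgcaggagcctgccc
Msx1: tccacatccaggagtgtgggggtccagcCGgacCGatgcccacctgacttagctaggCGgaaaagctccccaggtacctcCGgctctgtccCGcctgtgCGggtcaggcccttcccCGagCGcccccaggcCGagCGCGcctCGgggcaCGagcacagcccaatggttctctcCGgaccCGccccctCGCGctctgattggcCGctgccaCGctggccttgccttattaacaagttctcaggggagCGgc
Msx2: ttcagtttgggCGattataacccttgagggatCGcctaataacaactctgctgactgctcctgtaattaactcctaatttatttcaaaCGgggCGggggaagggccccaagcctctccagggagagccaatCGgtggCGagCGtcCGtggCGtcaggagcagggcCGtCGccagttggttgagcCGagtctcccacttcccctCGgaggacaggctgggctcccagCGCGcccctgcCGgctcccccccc
These 250 bases hold 24 CG dinucleotides in Dlx2, 20 in Msx1 and 16 in Msx2. In the full RefSeq window of 300 bases (250 before to 50 after the start) there are 27 in Dlx1, 29 in Dlx2, 29 in Msx1 and 22 in Msx2, against a median of 7 over 32851 promoters. At least as many were found in 15.5%, 12.9%, 12.9% and 23.1% of all promoters, respectively. TAATTA, which reads the same on both strands, was found once among the 4 windows, starting 187 bases before the start of Msx2, and is present in 5.29% of all windows. The number of ES cell loop anchors covering the promoter window was 7 for Dlx1, 7 for Dlx2, 5 for Msx1 and 4 for Msx2. In the epithelium it was 0, 1, 0 and 0, and in the fiber cells 1, 1, 0 and 1. No CTCF peak of either lens list overlapped any of the 4 windows.

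ES cells carried 35 distinct loops at the Dlx and Msx genes, the epithelium 9 and the fiber cells 9. By gene, Dlx1 and Dlx2 each had 10 ES cell loops, Dlx5 had 8, Msx1 had 7, Dlx6 had 6, Msx2 had 4, Dlx3 had 3 and Dlx4 had 0. Dlx5 led in both lens lists, with 4 loops in the epithelium and 3 in the fiber cells. The other genes had 2 (Dlx3), 1 (Dlx2, Msx1, Msx2) or 0 loops (Dlx1, Dlx4, Dlx6) in the epithelium, and 2 (Dlx3, Msx2), 1 (Dlx1, Dlx2, Msx1) or 0 loops (Dlx4, Dlx6) in the fiber cells. The lists thus differ most at Dlx1, Dlx2, Dlx6 and Msx1, and not at Dlx4, which had no loop in any of them. Of the ES cell loops, 16 were longer than 3 Mb, against 0 in either lens list.

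**Figure D1:**
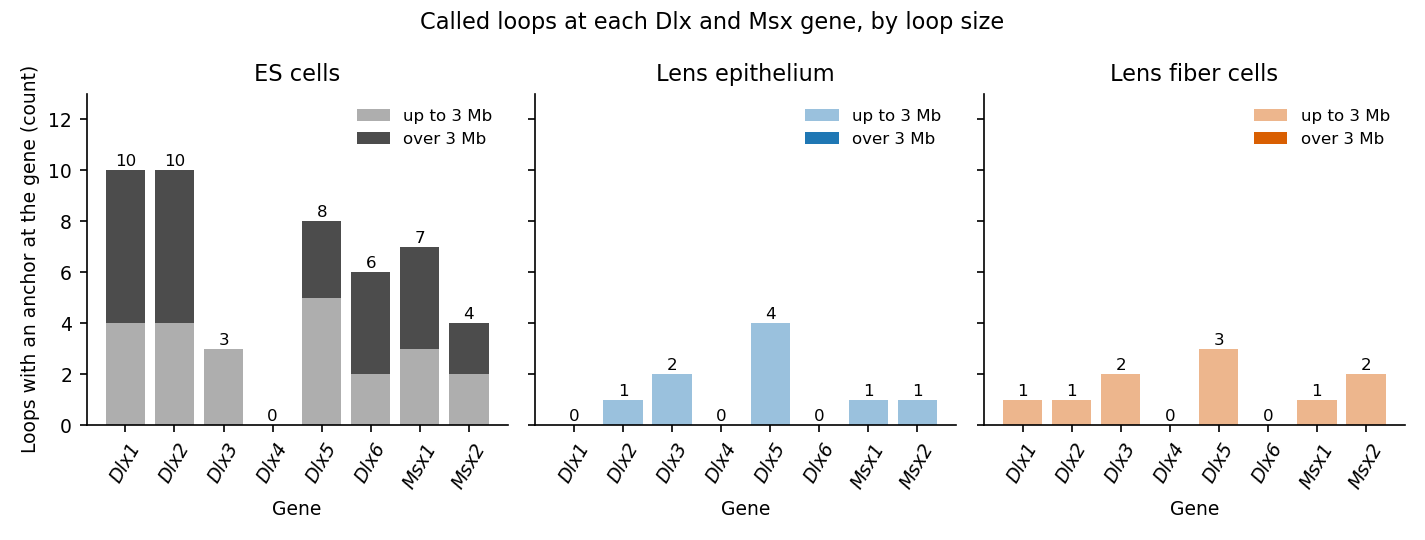
Number of called loops with an anchor at each gene (vertical axis, count) in ES cells, the epithelium and the fiber cells, with loops over 3 Mb in the darker shade. Dlx1 and Dlx2 reach 10 loops in ES cells, the darker shade appears only in the ES cell panel, and Dlx4 is at 0 in all panels.

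Several of these genes were among those with the most ES cell loops. Only 18 of all coding genes, or 0.0886%, had 10 loops or more in ES cells, and the highest number at any gene was 13. At least 8 loops, as at Dlx5, were found at 56 genes, at least 7, as at Msx1, at 95, and at least 6, as at Dlx6, at 168. By contrast, the 4 loops of Dlx5 in the epithelium were matched or exceeded at 2.00% of genes, and its 3 loops in the fiber cells at 5.05%. The 1 or 2 loops of the other genes in the lens lists are common values. These numbers include anchors in the 5 kb flanks. An ES cell anchor lay over the gene body itself for 4 of the 8 loops of Dlx5, 5 of the 7 of Msx1 and 7 of the 10 of Dlx2. The 3 loops of Dlx5 over 3 Mb came from an anchor over Dlx6 that ended 2800 bp from Dlx5, and so are counted for both genes.

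A loop anchor was found at 7 of the 8 genes in ES cells, where 39.1% of all coding genes had one, at 5 of 8 in the epithelium (38% of all) and at 6 of 8 in the fiber cells (36.2% of all). An anchor of a loop over 3 Mb was found at 6 of 8 in ES cells (Dlx1, Dlx2, Dlx5, Dlx6, Msx1 and Msx2), where 1.99% of all genes had one. In the epithelium it was 0 of 8, against 0.355% of all genes, and in the fiber cells 0 of 8, against 0.3%, which are low backgrounds for 8 genes. All 8 genes are short, between 3347 and 5869 bp for Dlx1 to Dlx6 and 4095 and 5900 bp for the Msx genes. Among coding genes of 1 to 10 kb, a loop anchor was found at 26.1%, 22.9% and 21.8%, and an anchor of a loop over 3 Mb at 2.17%, 0.173% and 0.0945%, in the same order of cell types.

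**Figure D2:**
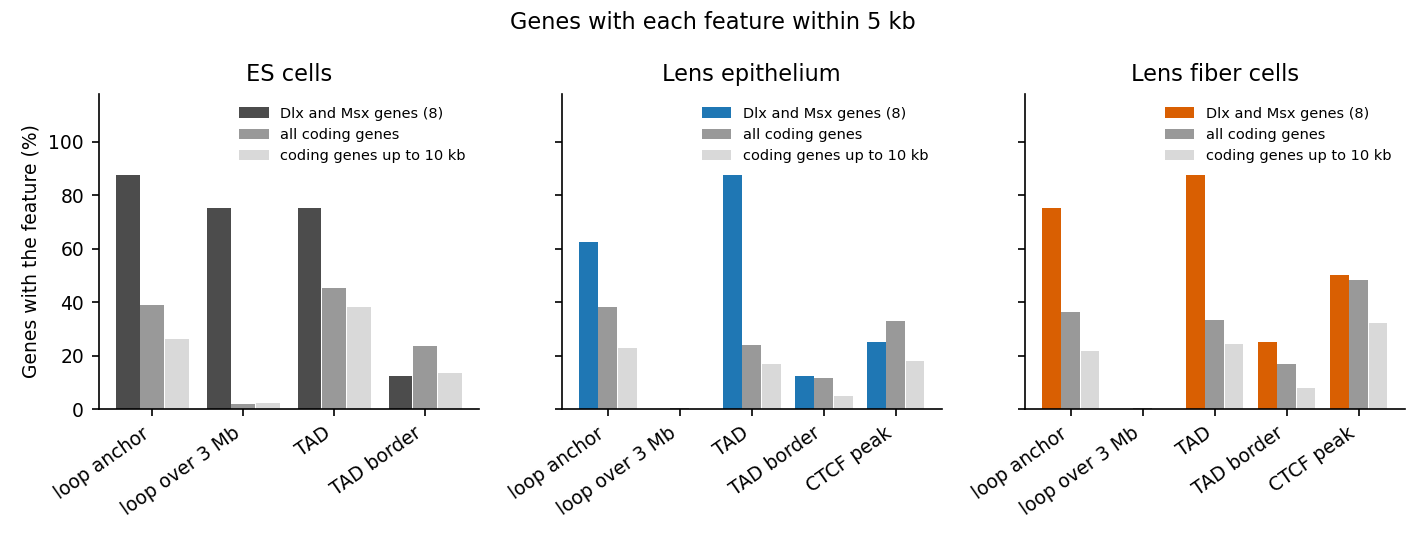
Percentage of genes (vertical axis) with each feature within 5 kb of the gene body, for the 8 Dlx and Msx genes, all 20307 coding genes and the 6349 coding genes up to 10 kb. The loop over 3 Mb in ES cells stands highest above its grey bars, at 6 of 8 genes against 1.99% of all genes, and the share for CTCF in the fiber cells, at 4 of 8, is close to the 48.2% of all genes.

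Loops of ES cells at these genes were long. Their size, taken between anchor midpoints, ran from 90 to 45375 kb with a median of 2430 kb, against 220 kb over the whole ES cell list. In the epithelium the sizes ran from 130 to 1250 kb (median 400 kb) and in the fiber cells from 115 to 1250 kb (median 300 kb), where the whole lists had medians of 250 and 270 kb. Loops over 3 Mb made up 45.7% of the ES cell loops at these genes and 3.72% of the whole ES cell list, while the whole lens lists held 1.05% and 1.07%.

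The strength of a loop is given as the observed contacts over the contacts expected from the ring of pixels around it (the donut of the loop caller). The 16 long ES cell loops had 14 to 58 observed contacts (median 16) and ratios of 6.93 to 28.8 (median 15.0). For the 19 shorter ES cell loops the contacts were 15 to 223 (median 34) and the ratios 2.07 to 25.5 (median 4.77). Over the whole ES cell list, loops over 3 Mb had a median of 19 contacts and a median ratio of 11.3. High ratios of long loops therefore rest on few contacts over a low expected number, and their intervals are wide. Ratios in the lens lists were between 2.37 and 5.06 in the epithelium and between 2.00 and 3.39 in the fiber cells. Anchors of 25 kb were used in 12 of the 16 long ES cell loops and in 81.0% of all ES cell loops over 3 Mb. Among loops with 5 or 10 kb anchors alone, 4 of the 16 were left, those to Hoxd10 and Hoxd11, Fezf1, En2 and Nkx3-2, and the ES cell loops of any size fell from 35 to 16.

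**Figure D3:**
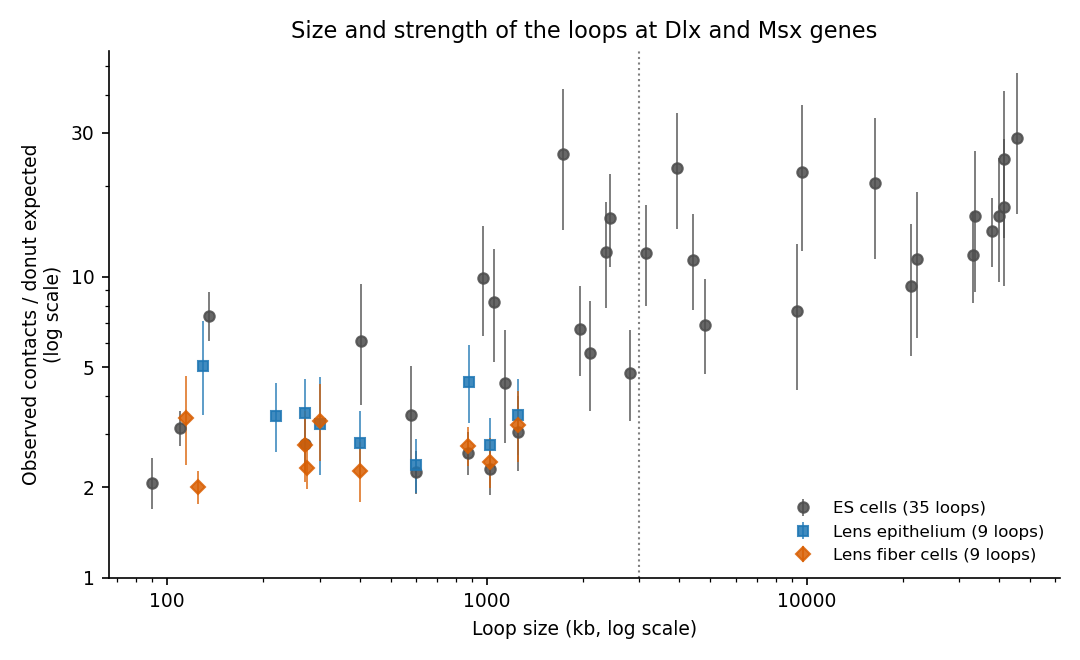
Size (horizontal axis, kb, log scale) and observed over donut expected contacts (vertical axis, log scale) of each loop at a Dlx or Msx gene, with exact 95% Poisson intervals as bars and a dotted line at 3 Mb. The lens loops sit between 115 and 1250 kb with ratios up to 5.06, and only ES cell points lie to the right of the line.

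Dlx1 and Dlx2 shared most of their ES cell loops, because anchors of 25 kb (chr2:71525001-71550000) or 10 kb span both or touch both windows. One led to Lmx1b, a LIM homeobox gene of the limb and midbrain, 37900 kb away with 58 contacts (ratio 14.1, interval 10.7 to 18.3). Lhx2, a LIM homeobox gene of the forebrain and eye, lay 33175 kb away with 34 contacts (ratio 11.8, 8.15 to 16.4). Hoxd10 and Hoxd11, limb patterning genes, lay 3150 kb away with 28 contacts (ratio 12.0, 7.97 to 17.3). These 3 partners lie on both sides of the pair and all encode homeodomain factors. Prdm12, a zinc finger gene of sensory neurons, was joined over 39900 kb with 19 contacts (ratio 15.9, 9.58 to 24.8). Wt1, a zinc finger gene of kidney and gonad, was joined over 33600 kb with 15 contacts (ratio 15.8, 8.86 to 26.1), and Alx4, a homeobox gene of skull and limb, over 22100 kb with 14 contacts (ratio 11.4, 6.24 to 19.2). The intervals of all these long loops overlap, and the order of their ratios cannot be read.

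Shorter ES cell loops of this pair spanned 90 to 1950 kb. Sp9, a zinc finger gene of limb and forebrain, lay 1735 kb away with 15 contacts and a ratio of 25.5 (14.3 to 42.0). Gad1, which encodes an enzyme of GABA synthesis, lay 970 kb away with 24 contacts (ratio 9.89, 6.34 to 14.7). Sp5, at 1050 kb with 23 contacts (ratio 8.22, 5.21 to 12.3), was reached from an anchor within 5 kb of Dlx1 but not of Dlx2. Lrp2, an endocytic receptor gene, lay 1950 kb away with 35 contacts (ratio 6.71, 4.67 to 9.33). The shortest loop, of 90 kb to Metap1d, had an anchor at Dlx2 only, with 106 contacts but a ratio of 2.07 (1.69 to 2.50). The 25 kb anchor of this pair also overlaps the end of Metap1d, so that the genes inside it cannot be told apart.

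Dlx5 and Dlx6 had a different makeup, with 4 of 10 distinct loops over 3 Mb. From the anchor chr6:6850001-6875000, which covers Dlx6 and the flank of Dlx5, ES cells had a loop of 45375 kb to Hoxa9, Hoxa10 and Hoxa11 with 15 contacts (ratio 28.8, 16.1 to 47.6). This was the longest loop at any of the 8 genes. Zfp467 and Sspo lay 41575 kb away with 14 contacts (ratio 24.6, 13.5 to 41.3), and Grm8, a glutamate receptor gene, 21275 kb away with 17 contacts (ratio 9.32, 5.43 to 14.9). A narrower anchor at Dlx6 alone was joined to Fezf1, a zinc finger gene of the forebrain, over 16380 kb with 15 contacts (ratio 20.4, 11.4 to 33.7). Nxph1, a neurexin ligand gene, lay 2100 kb away with 24 contacts (ratio 5.57, 3.57 to 8.29). Another anchor at Dlx6 met a site without an annotated gene 1140 kb away, with 23 contacts (ratio 4.43, 2.81 to 6.64).

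On the same side as that site, Dlx5 was joined over 600 to 1250 kb to the non-coding genes Gm46983 and Gm20619 and to Dync1i1, a dynein gene whose exons are known to hold limb enhancers of Dlx5 and Dlx6. In ES cells these were loops to Gm46983 (1250 kb, 50 contacts, ratio 3.04), to Dync1i1 (1025 kb, 103 contacts, ratio 2.30, and 875 kb, 151 contacts, ratio 2.59) and to Gm20619 (600 kb, 154 contacts, ratio 2.25). The anchor at the near end covered chr6:6875001-6900000, which holds Dlx5 but lies 7.03 kb beyond Dlx6, just outside its window. Every loop of this group had more contacts and a lower ratio than any long loop of the pair with anchors of the same width, 25 kb.

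Msx1 had 7 loops in ES cells, 4 of them over 3 Mb and all between 270 and 9660 kb. En2, a homeobox gene of the midbrain, lay 9660 kb away with 14 contacts (ratio 22.2, 12.1 to 37.2), and Shh, which encodes the Sonic hedgehog signal, 9350 kb away with 14 contacts (ratio 7.67, 4.19 to 12.9). Nkx1-1 lay 4400 kb away with 31 contacts (ratio 11.4, 7.73 to 16.1), and Nkx3-2, a homeobox gene of the skeleton, 3940 kb away with 22 contacts (ratio 23.0, 14.4 to 34.8). Hmx1, a homeobox gene of ear and eye, lay 2430 kb away with 33 contacts (ratio 15.6, 10.7 to 21.9). Thus 4 of the 5 most distant partners of Msx1 were homeobox genes, and Shh was the fifth. Crmp1, a gene of axon guidance, was joined over 580 kb with 27 contacts (ratio 3.47, 2.29 to 5.05), and Stx18, a membrane traffic gene, over 270 kb with 85 contacts (ratio 2.79, 2.23 to 3.45).

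Msx2 had 4 loops in ES cells, all of at least 2360 kb. Barx1, a homeobox gene of teeth and stomach, lay 4800 kb away with 32 contacts (ratio 6.93, 4.74 to 9.78), and Pitx1, a homeobox gene of the hindlimb, 2360 kb away with 26 contacts (ratio 12.0, 7.87 to 17.7). Neurog1, a proneural gene, lay 2800 kb away with 34 contacts (ratio 4.77, 3.30 to 6.67). Otp, a homeobox gene of the hypothalamus, lay 41425 kb away with 14 contacts (ratio 17.0, 9.30 to 28.6). None of these 4 partners was reached from Msx2 in either lens list.

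Dlx3 stood apart from the other loci, since its ES cell loops measured 110 to 405 kb and none was long. Of these, 2 led to the non-coding gene Gm11515, at 135 kb with 115 contacts (ratio 7.42, 6.12 to 8.90) and at 110 kb with 223 contacts (ratio 3.14, 2.74 to 3.58), and 1 led over 405 kb to a site without an annotated gene, with 20 contacts (ratio 6.12, 3.74 to 9.45). Dlx4 had none, its nearest anchor being 10.4 kb away in ES cells and 15.4 kb in each lens list.

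**Figure D4:**
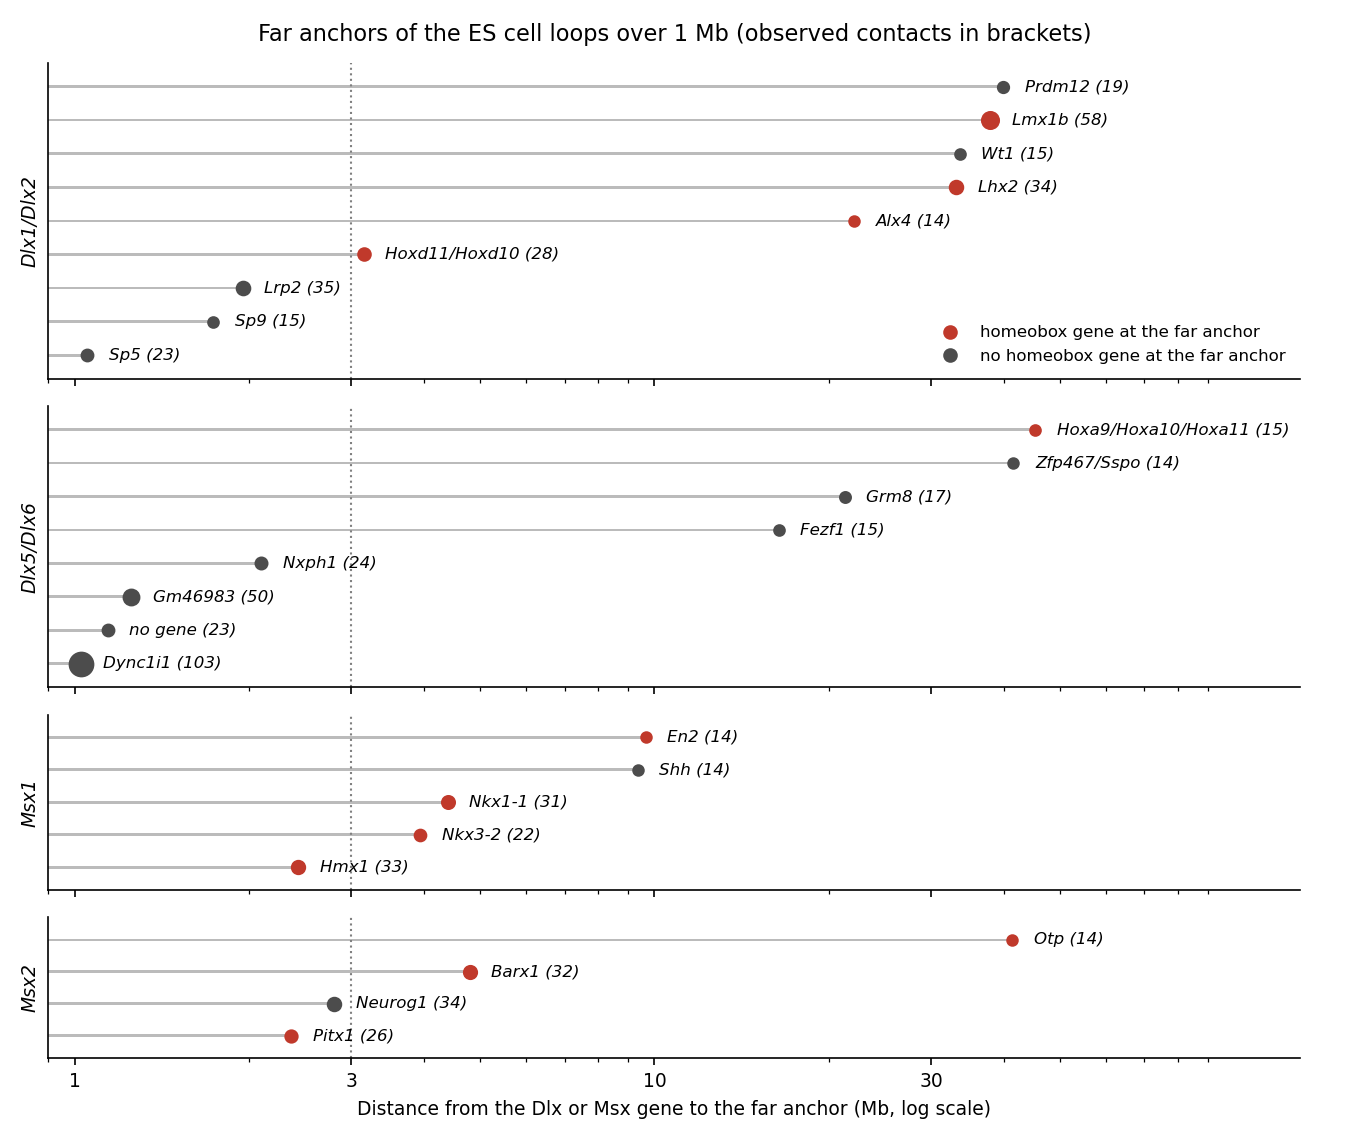
Far anchors of the ES cell loops over 1 Mb, by locus, placed by distance from the Dlx or Msx gene (horizontal axis, Mb, log scale), with genes at the anchor and observed contacts in brackets and larger points for more contacts. Red points mark a homeobox gene at the far anchor, and the dotted line is at 3 Mb. Dlx1/Dlx2, Msx1 and Msx2 have several red points beyond the line and Dlx5/Dlx6 has 1, at the Hoxa genes.

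Homeobox genes recurred at the far anchors. They lay at the far anchor of 10 of the 16 ES cell loops over 3 Mb, 4 at Dlx1/Dlx2, 1 at Dlx5/Dlx6, 3 at Msx1 and 2 at Msx2, and of 2 of the 19 shorter ones (Hmx1 and Pitx1). Among the other ES cell loops over 3 Mb, 27.8% of 598 anchors overlapped a homeobox gene, and among the other loops up to 3 Mb 1.77% of 16250. Of the 126 other long loops with a homeobox gene at some anchor, 40, or 31.7%, had one at both, and of the 251 such loops up to 3 Mb it was 37, or 14.7%. These shares count each loop once, whereas the loops here were reached from a homeobox gene at 1 end. Counted from each homeobox anchor the shares are higher, since a loop with both is met from either end. Of the 166 homeobox anchors of the other long loops, 86 had no homeobox gene at the other end, and the rest had one. For the other loops up to 3 Mb, 214 of 288 had none. The 2 of 19 does not exceed even the 14.7%, and 10 of 16 is too small a count to be read as above its matched share. In the lens lists, 0 of 168 anchors in the epithelium and 0 of 164 in the fiber cells of loops over 3 Mb overlapped a homeobox gene. The list of 249 homeobox symbols was written after the far anchors had been seen, the 16 loops come from 4 loci, and wide anchors meet more genes than narrow ones, so these shares are a description.

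Some partners of a Dlx or Msx gene were also joined to each other in the ES cell list. Partners were those reached by a loop over 1 Mb, and a pair was counted when a loop of any size had both anchors within 25 kb of the pair. By this rule 9 of 36 pairs of the 9 partners of Dlx1/Dlx2 had a loop of their own, 6 of 10 pairs for Msx1, 4 of 6 for Msx2 and 1 of 28 for Dlx5/Dlx6. Examples are Lmx1b with Hoxd10 and Hoxd11 over 41050 kb (45 contacts, ratio 15.8), En2 with Hmx1 over 7225 kb (38 contacts, ratio 11.5) and Barx1 with Pitx1 over 7170 kb (15 contacts, ratio 15.2). The lowest share was at Dlx5/Dlx6, where the only such pair was Fezf1 with Grm8 over 4900 kb (23 contacts, ratio 4.55). Partners and pairs were both taken from the ES cell list, and the share for partners of other genes was not computed. These counts are therefore a description and are not shown to be particular to these genes.

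Most loops found at these genes in the lens also had a counterpart in ES cells. The same share was not computed for the whole lists, so it is not shown to be particular to these genes. With both midpoints within 10 kb, a counterpart in ES cells was found for 7 of 9 loops in the epithelium and for 6 of 9 in the fiber cells (77.8% and 66.7% of each list), and 5 were in all 3 lists. From the ES cell side this was 7 of 35 (20.0%) in the epithelium and 6 of 35 (17.1%) in the fiber cells. None of the 16 long ES cell loops had a counterpart in either lens list, even within 25 kb. The weakest of them had 14 contacts, so a counterpart may have been below detection in the lens maps. The study reports a larger share of contacts between chromosomes in both lens cell types than in ES cells, and depth was not taken into account here. The whole lists held 315 loops over 3 Mb in ES cells, 84 in the epithelium and 82 in the fiber cells. How many of the other long ES cell loops had a counterpart was not computed, so the absence is not shown to be particular to these genes. Between the lens lists 5 of 9 loops were shared at 10 kb and 8 of 9 at 25 kb.

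Of the loops in all 3 lists, 3 were at Dlx5. Its loop of 1250 kb to Gm46983 had 50 contacts in ES cells (ratio 3.04, 2.26 to 4.01), 49 in the epithelium (3.47, 2.57 to 4.59) and 56 in the fiber cells (3.21, 2.42 to 4.17). The loop of 1025 kb to Dync1i1 had 103 (2.30, 1.88 to 2.79), 89 (2.77, 2.22 to 3.40) and 108 contacts (2.42, 1.99 to 2.92). These intervals overlap between all 3 cell types. The second loop to Dync1i1 was listed with 25 kb anchors in ES cells (875 kb, ratio 2.59, 2.19 to 3.04) and the fiber cells (875 kb, 180 contacts, ratio 2.73, 2.35 to 3.16), but with 10 kb anchors in the epithelium (880 kb, 47 contacts, ratio 4.45, 3.27 to 5.92), and contacts at different anchor widths are not comparable. The loop to Gm20619 over 600 kb was listed in ES cells and in the epithelium (95 contacts, ratio 2.37, 1.91 to 2.89) and not in the fiber cells.

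**Figure D5:**
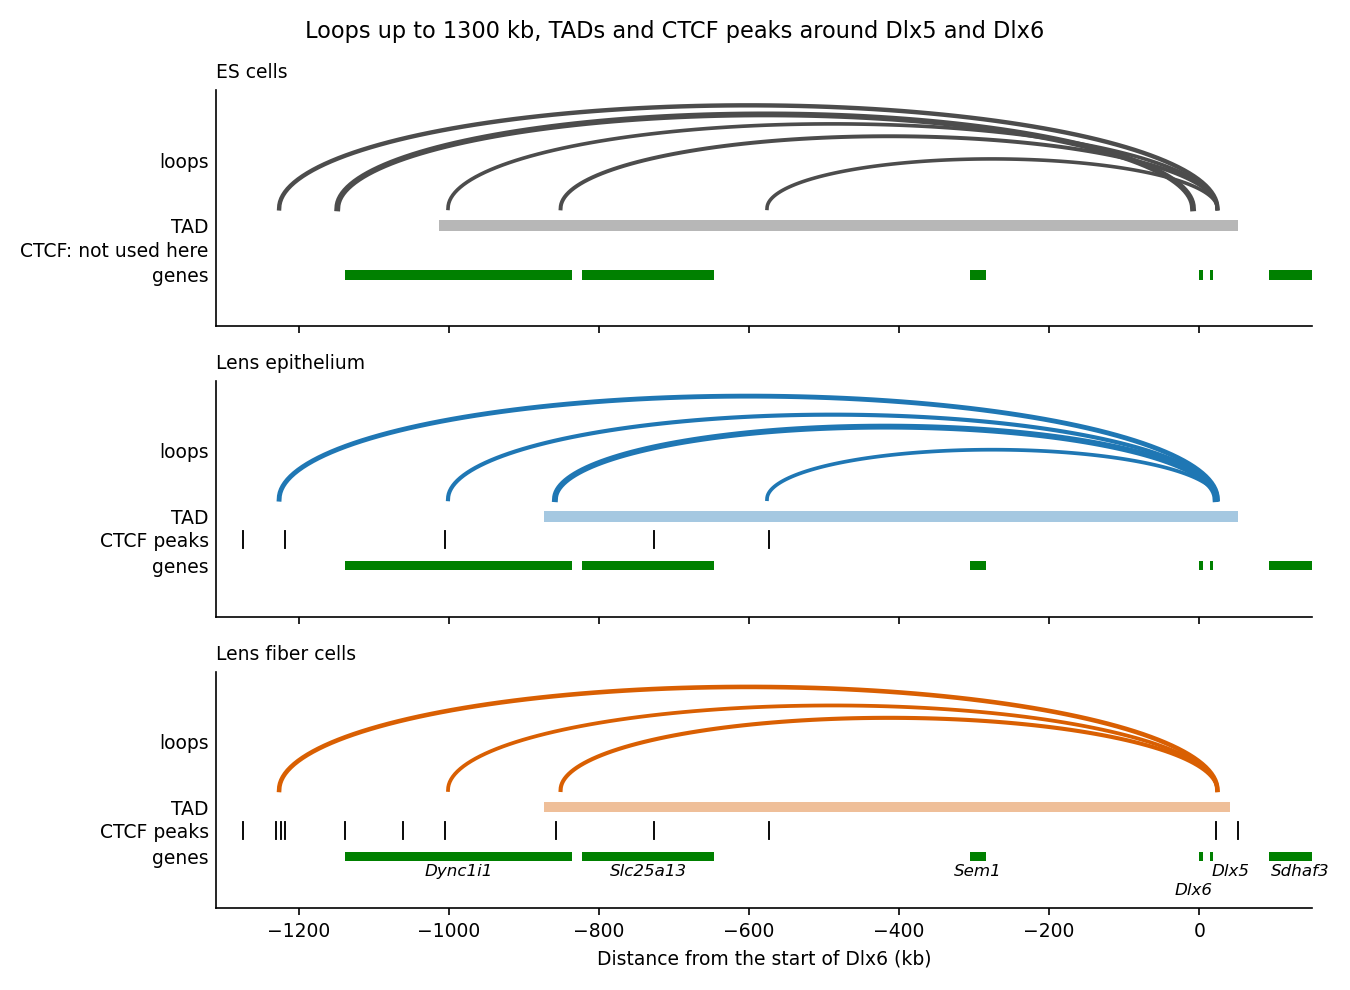
Map of the region around Dlx5 and Dlx6 in each cell type, by distance from the start of Dlx6 (horizontal axis, kb), with loops up to 1300 kb as arcs whose width follows the observed over expected ratio, TADs as bars, CTCF peaks as ticks and coding genes as green boxes. The 3 arcs of 1250, 1025 and about 875 kb from Dlx5 appear in all cell types. A CTCF tick beside Dlx5 appears in the fiber cells and not in the epithelium, and no CTCF peaks were drawn for ES cells.

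Msx1 and Dlx3 carried the other loops seen in all cell types. Msx1 and Stx18 were joined over 270 kb with 85 contacts in ES cells (ratio 2.79), 58 in the epithelium (3.53, 2.68 to 4.57) and 55 in the fiber cells (2.75, 2.07 to 3.58). That anchor (chr5:37810001-37820000) ended 0.49 kb from Msx1 and did not reach its gene body. A loop from Dlx3 to a site 400 kb away in Nxph3, a neurexin ligand gene, had 65 contacts in the epithelium (ratio 2.80, 2.16 to 3.57) and 77 in the fiber cells (2.26, 1.78 to 2.82), and matched the ES cell loop of 405 kb. The lens loops of Dlx3 to Gm11515 measured 130 kb in epithelium (32 contacts, ratio 5.06, 3.46 to 7.14) and 115 kb in fiber cells (36 contacts, ratio 3.39, 2.38 to 4.69). The intervals of both lens ratios overlap for each of these loops. The lens loops to Gm11515 matched each other only within 25 kb, so they are not among the loops in all 3 lists at 10 kb.

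Loops listed in the lens without an ES cell counterpart at 10 kb were at Dlx1/Dlx2 and at Msx2. Dlx2 was joined over 300 kb to Dync1i2, a dynein gene, in the epithelium (30 contacts, ratio 3.25, 2.19 to 4.64), and Dlx1 and Dlx2 over 275 kb to Dync1i2 and Slc25a12 in the fiber cells (161 contacts in a 25 kb anchor, ratio 2.32, 1.97 to 2.70). In the epithelium an anchor lay 6.02 kb from Dlx1, just outside its window. Msx2 was joined over 220 kb to the non-coding genes Gm34278 and Gm34332 in the epithelium (60 contacts, ratio 3.44, 2.62 to 4.43). In the fiber cells it was joined over 300 kb to Gm34439 (48 contacts, ratio 3.32, 2.45 to 4.41) and over 125 kb to a site without a gene (256 contacts, ratio 2.00, 1.76 to 2.26). Within 25 kb, the loops to Gm34278 and Gm34332 and to Gm34439 did have an ES cell counterpart, anchored outside the window of Msx2.

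TADs touched 6 of the 8 genes in ES cells, where 45.4% of all coding genes touched one, 7 of 8 in the epithelium (23.9% of all) and 7 of 8 in the fiber cells (33.2% of all). Each of these counts rests on 4 TADs, since the genes of a pair touched the same ones and are not independent. Among coding genes of 1 to 10 kb the shares were 38.1%, 16.8% and 24.4%. Dlx5 and Dlx6 were in the largest of these TADs, of 1065 kb in ES cells (chr6:5850001-6915000), 925 kb in the epithelium (chr6:5990001-6915000) and 915 kb in the fiber cells (chr6:5990001-6905000), each with Dync1i1, Slc25a13 and Sem1. The right border lay 32.9 kb from Dlx5 in ES cells and the epithelium and 22.9 kb in the fiber cells.

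Dlx1 and Dlx2 were in a TAD of 145 kb in ES cells (chr2:71430001-71575000), with Hat1 and Metap1d, and in larger ones of 340 kb in the epithelium (chr2:71215001-71555000) and 325 kb in the fiber cells (chr2:71220001-71545000), which also held Dync1i2 and Slc25a12. The right border as listed in the fiber cells fell inside the gene body of Dlx2, whereas it lay 28.2 kb beyond Dlx2 in ES cells and 8.25 kb beyond it in the epithelium. TAD borders at these genes fall on steps of 5 kb, longer than Dlx2 itself, so a place inside or just outside the gene is not resolved. Msx1 was in no TAD in ES cells, and in one of 315 kb in the epithelium and 330 kb in the fiber cells, each with Stx18 as the only other coding gene. Msx2 touched no TAD in any list.

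Dlx3 lay at a TAD border in all 3 lists. In the epithelium (95 kb, chr11:95120001-95215000) and the fiber cells (115 kb, chr11:95120001-95235000) the TAD began 0.116 kb before Dlx3 and held Dlx3 and Dlx4 alone. ES cells had a TAD of 260 kb over both genes and an inner one of 125 kb (chr11:95125001-95250000) whose left border fell inside Dlx3. With borders on steps of 5 kb, it is not resolved whether a border lies before or inside Dlx3. A border was found in the window of 1 of 8 genes in ES cells (23.5% of all coding genes), 1 of 8 in the epithelium (11.5%) and 2 of 8 in the fiber cells (16.7%). Among coding genes of 1 to 10 kb a border was found at 13.4%, 4.82% and 7.73%. Counts of 1 or 2 of 8 genes are too small to be read as above or below either set of shares. The second gene with a border in the fiber cells was Dlx2.

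CTCF peaks were found at 2 of 8 genes in the epithelium, where 32.9% of all coding genes had one, and at 4 of 8 in the fiber cells, where 48.2% did. Both values are near the background, and among coding genes of 1 to 10 kb the shares were 17.9% and 32.1%. Lens epithelium had 2 peaks, one with its summit 1298 bp upstream of the start of Dlx2 (chr2:71547948-71548186, fold enrichment 5.72, −log10 q 7.66) and one 2.80 kb before Dlx3 (chr11:95116999-95117314, fold 8.03, −log10 q 14.9). Both were found in the fiber cells too, with summits 64 and 58 bp away and folds of 7.97 (−log10 q 13.8) and 6.25 (−log10 q 9.98). The Dlx2 peak thus had the higher fold in the fiber list and the Dlx3 peak in the epithelium list, on separate backgrounds and with no replicate error in these lists.

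The other 4 peaks were listed in the fiber cells alone, and all had folds below the median of 6.44 of that list. A peak in the gene body of Dlx2 (chr2:71546222-71546460) had a fold of 4.06 and a −log10 q of 3.21, and a second one before Dlx3 (chr11:95118574-95118805) a fold of 4.34 and a −log10 q of 4.64. One 2.99 kb from Dlx5 (chr6:6885055-6885242) and one 4.66 kb from Msx2 (chr13:53461863-53462220), just inside its window, each had a fold of 5.43 and a −log10 q of 5.80. Inside the gene bodies without the 5 kb flanks lay 0 peaks in the epithelium and 1 in the fiber cells, that of Dlx2. Dlx1, Dlx4, Dlx6 and Msx1 had no peak in either list. The nearest peak to Msx1 was 28.0 kb away in the epithelium and 67.8 kb in the fiber cells, and that to Dlx5 in the epithelium was 491.6 kb away. Over the region of Dlx5 and Dlx6 from 1300 kb before to 100 kb after the start of Dlx6, the epithelium had 5 peaks and the fiber cells 12. The whole lists differ in the same direction, with 16433 and 23868 peaks, so the difference is not shown to be particular to this region.

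CTCF lay at both anchors of 1 of the 9 loops in the epithelium, where 15.7% of all loops of that list had it, and of 5 of the 9 in the fiber cells, against 39.1%. The epithelium loop was that of Dlx3 with Nxph3, and the fiber loops were the same one and the 3 loops of Dlx5 and that of Msx2 with Gm34439. Set against the fiber peaks, which are more numerous, 6 of the 9 epithelium loops had CTCF at both anchors (38.0% of that list). No CTCF list was used for ES cells. With the fiber peaks laid over the ES cell loops, 3 of the 16 long loops and 7 of the 19 shorter ones had a peak at both anchors, against 17.8% and 33.8% of all ES cell loops of those sizes.

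Other genes of the same families and pathways were set beside the Dlx and Msx genes. Of 24 related homeobox genes of the NKL group, 19 had a loop in ES cells, 13 in the epithelium and 10 in the fiber cells, and 12, 0 and 0 had one over 3 Mb. The highest number was 12 loops, at Barhl2 in ES cells, and En2, Hmx1 and Barx1 of this list share loops with Msx1 or Msx2. Of 17 genes of the BMP pathway, which acts upstream of Msx1 and Msx2, 8, 10 and 11 had a loop and none had a long one in any list. Of 16 neural crest, placode and GABA neuron genes, 12, 11 and 9 had a loop and 7, 0 and 0 a long one, with 10 loops at Tfap2a in ES cells. Gad1, in the last list, shares a loop with Dlx1 and Dlx2. The median number of ES cell loops was 6.5 at the Dlx and Msx genes, 3 in the NKL list, 4 in the neural crest list and 0 in the BMP list and over all coding genes. In the lens lists the medians were 1 for the Dlx and Msx genes and 0 or 1 for the others.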

How the data were processed

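Hi-C reads of both replicates of each cell type were aligned with BWA and merged by the authors, who made contact maps with Juicer and called loops with HiCCUPS (juicer_tools 2.13.06) and TADs with Arrowhead. Each deposited loop carries an observed count, the raw number of contacts, and a q-value (FDR) of that count against the expected contacts. CTCF peaks are those of the authors' MACS2 run, and the deposited lists give a fold enrichment (ratio), a score and the −log10 of p and q. The processing notes name the build mm10. Total depths of the maps and of the ChIP-seq reads were not used here, so that only the contacts of each loop give its precision.

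Gene bodies of GRCm38.p6 (coding genes of at least 1 kb) were widened by 5 kb and intersected with the lists using pandas 2.3.3 and numpy 2.4.6 under Python 3.11.15. Intervals used scipy 1.17.1, and figures matplotlib 3.10.9. Intervals are exact Poisson 95% intervals. Loops were shared when both midpoints lay within 10 kb. The code was tested on simulated data in 5 checks. Samples were grouped by their labels, and no test between cell types was run because each list is merged or single. The genes named were the 8 genes, all genes at their far anchors, their nearest coding neighbours and the genes with the most loops in 3 comparison lists. The members and lists, and the limit of 3 Mb, were chosen with earlier results of these data known. The other windows, anchor rules, q-value limits and sharing tolerances that were tried are given at the end.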

Additional observations from a re-analysis of the deposited data

How the results depend on the processing

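No paired analysis was possible because the lists merge the replicates and carry no replicate number. Of 89 alternative values of the counts and sizes, 69 were counts within 1.5 times of the reported one or median sizes equal to it (any other median size, however close, is given here), and none changed a direction, since no direction was tested. Loops with 5 or 10 kb anchors numbered 16 in ES cells, 5 in the epithelium and 3 in the fiber cells (3 genes with a loop), and 4 of them were over 3 Mb in ES cells. With the anchor midpoint in the window, there were 4 loops in each lens list, at 3 genes in the fiber cells. With a limit of 1 Mb for a long loop, 26, 2 and 2 were counted in ES cells, the epithelium and the fiber cells. The median size was 2440, 425 and 310 kb by the outer span, and 1025 kb in ES cells without loops over 3 Mb. Loops of the epithelium shared with the fiber cells were 8 within 25 kb. TADs of at least 200 kb numbered 2 in ES cells. Without widening, CTCF peaks numbered 0 in the epithelium and 1 in the fiber cells. With anchors widened by 5 kb, CTCF lay at both anchors of 2 epithelium loops. The limits for long loops and the genes of 1 to 10 kb were chosen after seeing the data. The share of coding genes with a loop varied from 32.0% to 45.1% in ES cells, 26.0% to 42.5% in the epithelium and 24.6% to 40.7% in the fiber cells, and that with a CTCF peak from 23.7% to 39.8% and from 34.9% to 56.6% in the lens lists. The cause of these changes was not tested. With 14 contacts in the weakest long loops, a loop that a list does not hold may have been below detection there.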
